A study of Danio rerio with 16 samples.

Results

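The genes described here encode enzymes of mitochondrial beta-oxidation, the cycle that shortens an acyl-CoA chain in the mitochondrion and releases acetyl-CoA. They were taken by symbol: acadvl, acadl, acadm, and acads (acyl-CoA dehydrogenases), hadhaa, hadhab, and hadhb (subunits of the trifunctional protein), echs1 (short-chain enoyl-CoA hydratase), hadh (3-hydroxyacyl-CoA dehydrogenase), and eci1 (enoyl-CoA delta isomerase). All 10 were found, each under 1 entry, among the 33715 genes that had a level above 0 in at least 1 library, and each was above 0 in all 16 libraries. Each turn of the cycle runs through a dehydrogenation, a hydration, a 2nd dehydrogenation, and a thiolytic cleavage. The acyl-CoA dehydrogenases divide the first step among themselves by chain length, from very long (acadvl) over long (acadl) and medium (acadm) to short chains (acads). The trifunctional protein carries out the remaining steps for long chains, with hydratase and dehydrogenase activity on its alpha subunit and thiolase activity on its beta subunit. For shorter chains, echs1 and hadh serve the hydration and the 2nd dehydrogenation, and eci1 moves the double bond of unsaturated chains to a position that the cycle can use. The liver is a main site of this pathway, which feeds the formation of ketone bodies when fat is the fuel.

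Liver RNA was sequenced in 16 libraries from 4 types of zebrafish on 3 diets, 4 libraries a type. HBx,Src(p53-), Src(p53-), and HBx(p53-) fish carry the transgenes for Src (a tyrosine kinase), for HBx (the X antigen of hepatitis B virus), or for both under the fabp10a promoter, which is active in liver cells, and all of them also carry a p53 mutation. WT fish are of the AB strain without transgenes. Since no fish with the p53 mutation alone was sequenced here, a transgene and the p53 mutation cannot be told apart in a comparison with WT. Fish were 3 months old at the start and were fed for 8 weeks. All groups received powdered feed daily, and the diets differed in what was given besides it. Overfeeding (DIO) was 2 ml of Artemia 3 times daily. The high-fat diet (FAT) was 0.5 ml of Artemia 1 time daily with 0.22 g of high-fat food 3 times daily, and the normal diet (NOR) was 0.5 ml of Artemia 1 time daily. The HBx,Src(p53-) fish had 2 DIO and 2 NOR libraries, and each other type had 1 DIO, 1 FAT, and 2 NOR libraries. DIO and FAT both count as the obesity diet, with 2 obesity libraries and 2 NOR libraries a type. Those of HBx,Src(p53-) were of DIO alone. Levels are FPKM, the number of sequenced fragments divided by transcript length in kilobases and by the number of fragments mapped, which corrects for length, so that genes can be compared within a library. No read counts were used, and the depth behind a gene's value is unknown.

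Summed over all genes, a library held between 812158 and 1218152 FPKM. The liver label was checked on 5 of 11 listed hepatocyte genes that were found, among them fabp10a, which had 958 to 3312 FPKM. Markers of other cell types were low except for red blood cell genes (5 of 6 found, summed level 226 to 779 FPKM) and exocrine pancreas genes (11 of 17 found, 6.11 to 413 FPKM). The summed levels of all other lists stayed under 26 FPKM, and both adipocyte genes found (2 of 4) were at 0 in every library. The gene src had 3.47 to 47.3 FPKM in the 8 libraries labelled as carrying it and up to 4.24 FPKM in the 8 others, of which 1 is listed at 0. The libraries labelled HBx,Src(p53-) DIO had 3.47 and 4.34 FPKM of src, so that on this gene they overlapped the libraries without the transgene. Src(p53-) FAT had 4.90 FPKM. The sources used here do not say if transgene reads are counted under src, and group names below are those of the labels. In whole liver, fewer cells of a type and less RNA per cell cannot be told apart. The study names as many fish as libraries, so each library is taken to be 1 fish, though no label says so.

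The 10 genes fell into an upper group of 6 and a lower group of 4. acadm was the highest in 16 of 16 libraries, with a lowest, median, and highest level of 479.7, 804, and 1423 FPKM. Below it in the order of medians came acadl at 209 FPKM, hadhaa at 142, hadhb at 98.5, acadvl at 93.4, and acads at 82.0. The lower group held hadhab at 23.2 FPKM, hadh at 16.1, echs1 at 13.5, and eci1 at 11.9. acads, the lowest of the upper group, was above hadhab, the highest of the lower group, in 16 of 16 libraries. The 2 highest medians were thus of genes for the first step of the cycle, and the next were of the alpha and beta subunits of the trifunctional protein. acadm alone made up 42.0% to 69.2% of the summed FPKM of the 10 genes.

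**Figure D1:**
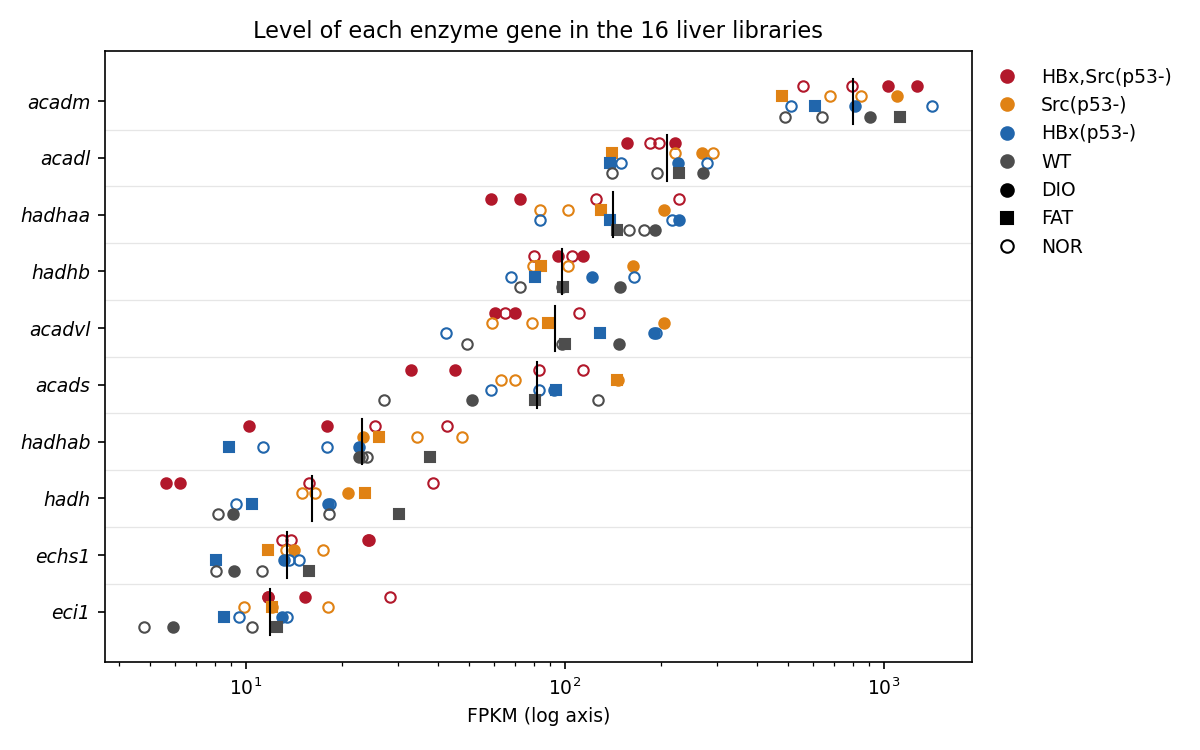
FPKM (log axis) of the 10 genes in each of the 16 liver libraries, with genes ordered from the highest median (acadm, 804 FPKM) to the lowest (eci1, 11.9 FPKM). Each symbol is a library, coloured by type of fish, filled for DIO (circle) and FAT (square) and open for NOR, and the vertical line is the median. The 6 upper genes do not mix with the 4 lower ones in any library.

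Within each group the order was less firm. acadl exceeded hadhaa in 12 of 16 libraries, and hadhaa exceeded hadhb in 14 of 16, the exceptions being the 2 HBx,Src(p53-) DIO libraries. hadhb and acadvl could not be ordered, since hadhb was the higher in 9 of 16 libraries and the median ratio of the pair was 1.01. acadvl exceeded acads in 10 of 16 libraries. In the lower group, hadhab exceeded hadh in 14 of 16 libraries, hadh exceeded echs1 in 11, and echs1 exceeded eci1 in 12. The genes also differed in how far they varied. The highest library exceeded the lowest by 2.09-fold for acadl, 2.44-fold for hadhb, 2.97-fold for acadm, and 3.02-fold for echs1, and by 6.86-fold for hadh, 5.89-fold for eci1, 5.41-fold for acads, and 5.38-fold for hadhab. Replicates of a group differed much as well. The within-group SD of log2(FPKM + 1) was 0.29 for echs1, the smallest, and 0.73 for acadvl, the largest.

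Among the 4 acyl-CoA dehydrogenases, the medium-chain enzyme gene acadm took 56.1% to 79.8% of the summed level. The highest shares were those of the HBx,Src(p53-) DIO libraries, at 79.4% and 79.8%, and the next was WT FAT at 73.4%. acadm had 1270 and 1029 FPKM in the HBx,Src(p53-) DIO libraries, against 561 and 797 FPKM in HBx,Src(p53-) NOR. The short-chain gene acads had 45.4 and 33.0 FPKM in the same DIO libraries, against 83.2 and 114 FPKM in NOR. Its share of the 4 dehydrogenases was 2.84% and 2.56% there, the lowest of all libraries, and reached 17.1% in Src(p53-) FAT. acads was also the member in which replicates were farthest apart in WT NOR, with 128 and 27.2 FPKM. The long-chain gene acadl took 12.2% to 22.6% and the very long-chain gene acadvl 3.79% to 14.5%, with the highest acadvl share in HBx(p53-) DIO. acadvl had 60.5 and 69.8 FPKM in HBx,Src(p53-) DIO, against 65.2 and 111 FPKM in HBx,Src(p53-) NOR, and the groups overlapped. It had 205 and 88.8 FPKM in Src(p53-) DIO and FAT, against 59.11 and 79.0 FPKM in Src(p53-) NOR, without overlap. In HBx(p53-) it had 191 and 129 FPKM in DIO and FAT, both between the 42.5 and 194 FPKM of NOR. In WT it had 148 and 100.1 FPKM in DIO and FAT, against 98.0 and 49.3 FPKM in NOR, and the lowest obesity value exceeded the highest NOR value by little. acadl had the smallest range of the 10 genes over the libraries. In HBx,Src(p53-) it had 223 and 157 FPKM in DIO, on both sides of the 186 and 198 FPKM of NOR, and in WT it had 272 and 229 FPKM in DIO and FAT, above the 195 and 141 FPKM of NOR.

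The alpha subunit of the trifunctional protein is encoded by a pair of paralogs in zebrafish, hadhaa and hadhab. hadhaa was the higher of the pair in every library, and made up 68.2% to 94.0% of their sum. The ratio of hadhaa to hadhab was 2.14 at the lowest, 6.86 at the median, and 15.6 at the highest. The lowest ratios were 2.44 and 2.14, in the Src(p53-) NOR libraries, and the highest was in HBx(p53-) FAT. In the Src(p53-) NOR libraries hadhaa had 83.9 and 102 FPKM and hadhab 34.4 and 47.8 FPKM. WT NOR libraries had 177 and 159 FPKM of hadhaa and 23.1 and 24.0 FPKM of hadhab. Neither gene overlapped between Src(p53-) and WT on NOR, with hadhaa lower and hadhab higher in Src(p53-), and 36.7% of the genes averaging 1 FPKM or more were likewise without overlap in that comparison. Paralogs with similar sequence can share reads, so the split of reads between hadhaa and hadhab is uncertain, as is whether other transcripts of a gene were added to its value.

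For tests, the log2 ratio of hadhaa to hadhab was taken after adding 1 FPKM to each level. It averaged 1.75 ± 0.67 in the 4 NOR libraries of the fish with the Src transgene (Src(p53-) and HBx,Src(p53-)). In the 4 NOR libraries of the fish without it (HBx(p53-) and WT), it averaged 2.97 ± 0.38 (SD, n = 4 each). The difference was −1.22 (two-sided exact permutation p = 0.0286, the smallest that 70 splits can give, and 0.0857 after Benjamini-Hochberg adjustment over 3 such tests). All 4 ratios of the Src carriers lay below all 4 of the others. On the obesity diet the averages were 2.43 ± 0.61 with Src and 3.01 ± 0.80 without it, a difference of −0.58 (exact p = 0.314, adjusted 0.368). The carriers held fewer FAT libraries there, since those of HBx,Src(p53-) were of DIO alone. Between the 8 obesity libraries and the 8 NOR libraries the averages were 2.72 ± 0.73 and 2.36 ± 0.82, a difference of 0.36 (exact permutation p = 0.368, adjusted 0.368). All 3 tests split the libraries without regard to type of fish, so the spread between types entered them. Libraries of a type are thus not independent in these p-values. None of the 3 tests passed after adjustment.

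The beta subunit gene hadhb is the immediate neighbour of hadhaa in the gene order of the assembly GRCz12tu, which was used for names and order only. The summed alpha level (hadhaa + hadhab) was 0.675 and 0.864 times that of hadhb in the HBx,Src(p53-) DIO libraries, and between 1.39 and 2.58 times in the other 14. hadhaa alone was 0.516 and 0.757 times hadhb in these libraries and not below 1.00 times elsewhere. hadhb itself had 114 and 95.7 FPKM in HBx,Src(p53-) DIO and 80.2 and 105 FPKM in HBx,Src(p53-) NOR, values that overlapped. hadhaa had 58.8 and 72.5 FPKM in HBx,Src(p53-) DIO, the lowest of all 16 libraries, against 125 and 229 FPKM in HBx,Src(p53-) NOR. Over the 16 libraries, alpha and beta levels on the log2(FPKM + 1) scale had a Pearson r of 0.489 (permutation test, p = 0.0552) and a Spearman rho of 0.588 (permutation p = 0.0188). Without the 2 libraries farthest from the median alpha level, which were those of HBx,Src(p53-) DIO, r was 0.743 and rho 0.798 (permutation p = 0.00231 and 0.00095). These 2 were picked by alpha level and are the only ones with alpha below hadhb. The higher r and its p are thus no separate support for the relation. The permutations also treat libraries as independent, though they share diet and type of fish. Within the 8 obesity libraries r was 0.447 (exact permutation p = 0.263), and within the 8 NOR libraries it was 0.693 (exact permutation p = 0.0531). As an alternative to the sum, hadhaa alone had an r of 0.493 with hadhb over the 16 libraries (permutation p = 0.0531). Its rho was 0.553 (permutation p = 0.0292). The p-values of these relations were not adjusted for the number of tests.

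**Figure D2:**
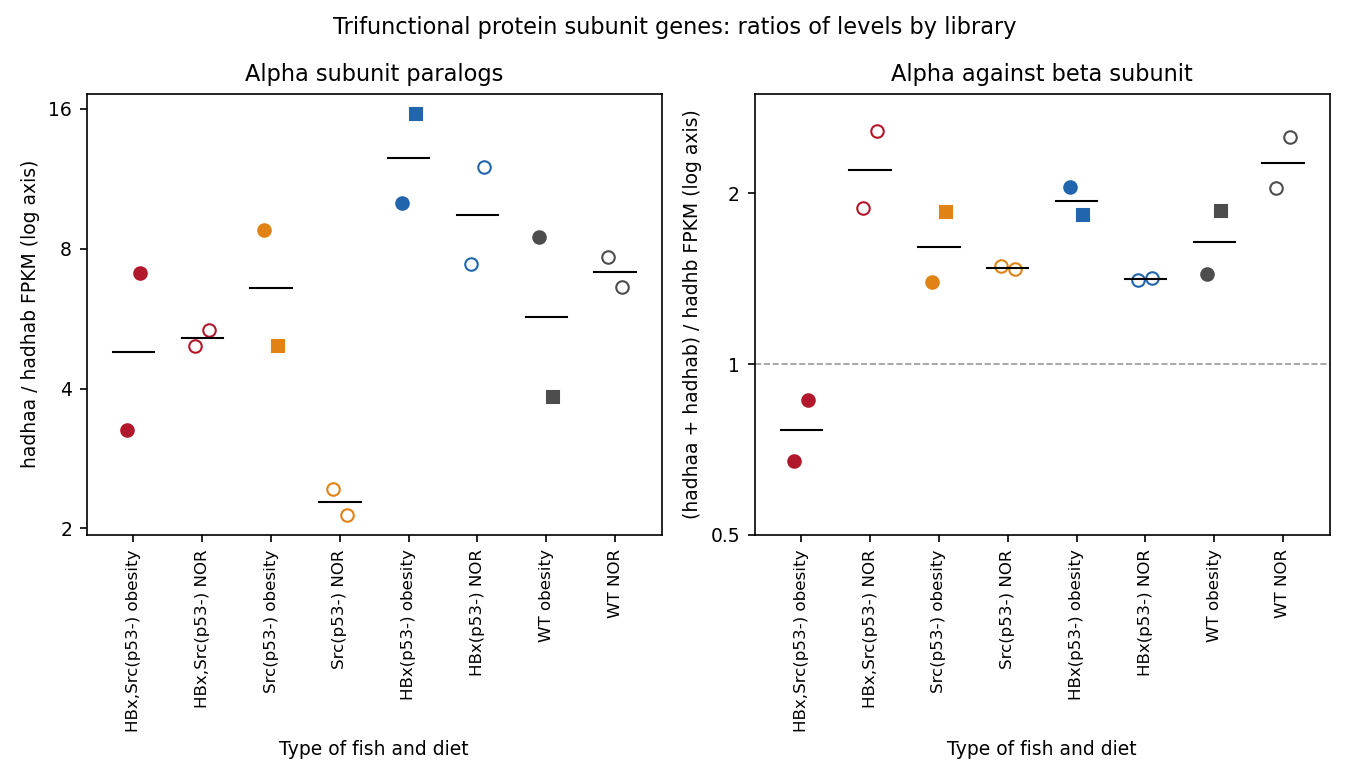
Ratio of the alpha subunit paralogs hadhaa and hadhab (left) and of their sum to the beta subunit gene hadhb (right), both on a log axis, for each library by type of fish and diet. Filled circles are DIO, filled squares FAT, open circles NOR, and the bar is the geometric mean of the group. The ratio of hadhaa to hadhab is lowest in Src(p53-) NOR (2.44 and 2.14), and alpha falls short of hadhb only in HBx,Src(p53-) DIO (0.675 and 0.864).

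The genes of the shorter-chain steps lay on opposite sides of their NOR values in the HBx,Src(p53-) fish on DIO. echs1, the hydratase gene, had 24.2 and 24.3 FPKM in HBx,Src(p53-) DIO, the highest of all 16 libraries, against 13.9 and 13.04 FPKM in HBx,Src(p53-) NOR. hadh, the gene of the dehydrogenase that follows it in the cycle, had 5.63 and 6.23 FPKM in HBx,Src(p53-) DIO, the lowest of all 16, against 15.7 and 38.6 FPKM in HBx,Src(p53-) NOR. In both genes the DIO and NOR libraries of these fish did not overlap, as in 51.6% of the 12317 genes that averaged 1 FPKM or more. In the other types of fish, echs1 lay between 8.05 and 17.5 FPKM and hadh between 8.17 and 30.2 FPKM. The isomerase gene eci1 had 15.4 and 11.8 FPKM in HBx,Src(p53-) DIO, against 11.7 and 28.3 FPKM in NOR, and the groups overlapped. Its highest value overall was the 28.3 FPKM of HBx,Src(p53-) NOR library 2, which was also the highest library of hadh and hadhaa. Its lowest values were 5.94 FPKM in WT DIO and 4.82 FPKM in WT NOR library 2, and the 8 libraries of Src(p53-) and HBx(p53-) lay between 8.57 and 18.2 FPKM.

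Across the 16 libraries, the log2(FPKM + 1) values of the 10 genes were mostly related in the same direction. As a description over 45 pairs, Pearson's r had a median of 0.30 and was above 0 in 40 pairs. Libraries share the FPKM scale, diet, and type of fish, so these points are not independent of each other. The closest pairs were hadhb with acadvl (r = 0.81), hadhb with acadm (r = 0.79), and hadhb with acadl (r = 0.78), and acads with hadh (r = 0.78). The paralogs hadhaa and hadhab had an r of 0.27, below the median of the pairs. echs1 went with the fewest: its r with the mean of the 10 genes was 0.15, and with hadhaa it was −0.57, the lowest of all pairs. Of 2245 other named genes averaging 10 FPKM or more, the 5 most like the mean of the 10 genes over the 16 libraries were zgc:85777 (r = 0.83), ndufv1 (r = 0.80), a subunit of respiratory complex I, ftcd (r = 0.79), an enzyme of histidine and folate metabolism, etfdh (r = 0.77), which passes electrons from the acyl-CoA dehydrogenases to ubiquinone, and zswim5 (r = 0.75).

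**Figure D3:**
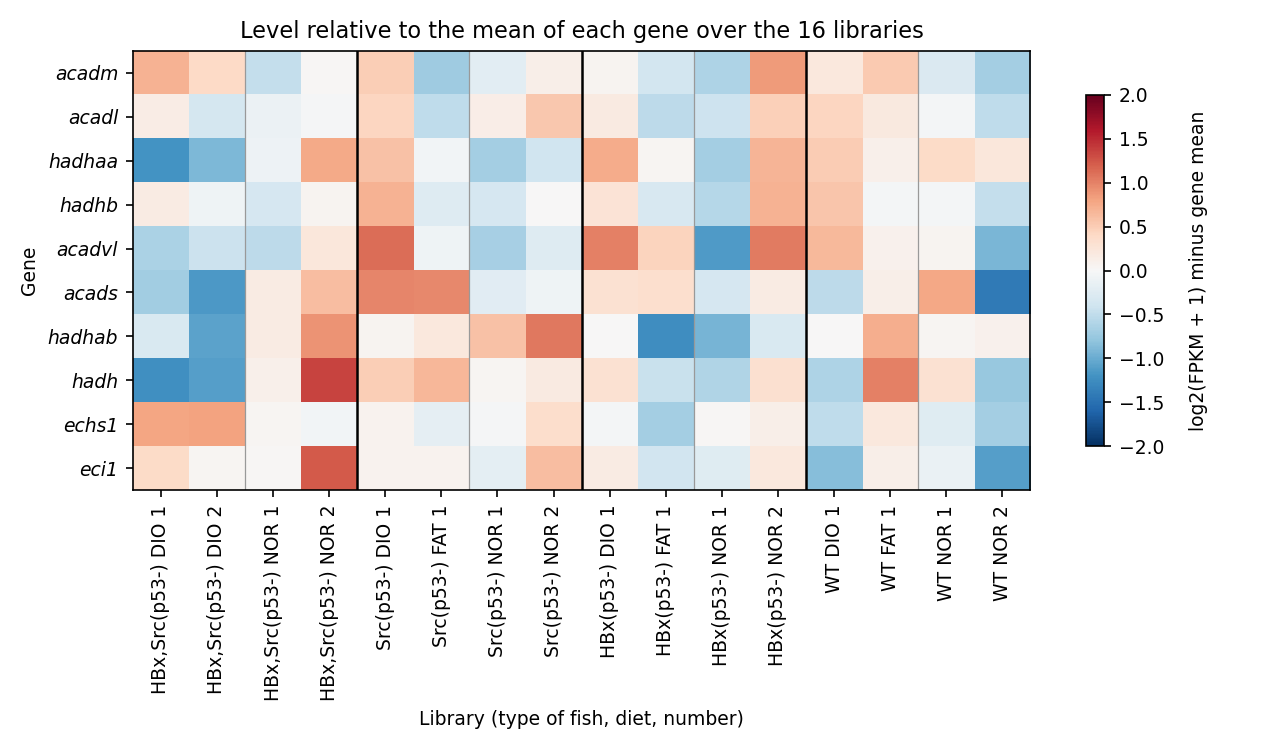
log2(FPKM + 1) of each gene minus its mean over the 16 libraries (colour), with genes in the order of their median level and libraries grouped by type of fish, the obesity libraries left of the NOR libraries. In the HBx,Src(p53-) DIO libraries hadhaa, hadh, and acads are low while echs1 and acadm are high. HBx(p53-) NOR libraries 1 and 2 lie on opposite sides of the mean in most genes.

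The first comparison asked whether the obesity diet changed these genes in each type of fish. With limma on 8 groups, 0 of the 10 genes passed an adjusted p of 0.05 in any type of fish, and an exact test of 2 libraries against 2 cannot go below a p of 0.333. In HBx,Src(p53-) fish, 5 of 10 genes had an unadjusted limma p under 0.05, as did 11% of all genes, and 0.335% of all genes passed the adjusted p. The 6 genes without overlap between DIO and NOR were acadm and echs1, higher on DIO, and acads, hadh, hadhaa, and hadhab, lower on DIO. Among the 12317 genes that averaged 1 FPKM or more, called expressed genes below, 51.6% were without overlap in either direction, so 6 of 10 was near the background. The log2 fold change of hadh was −1.90 ± 0.62 (SE, limma adjusted p = 0.281), that of hadhaa −1.36 ± 0.49 (adjusted p = 0.333), and that of acads −1.31 ± 0.58 (adjusted p = 0.453). hadhab, with 18.1 and 10.2 FPKM on DIO against 25.4 and 42.7 FPKM on NOR, had −1.22 ± 0.49 (adjusted p = 0.412). echs1 had 0.80 ± 0.35 (adjusted p = 0.453) and acadm 0.77 ± 0.51 (adjusted p = 0.645). The median over the 10 genes was −0.40, against −0.10 over the expressed genes, and was 0.00 without HBx,Src(p53-) NOR library 2.

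Other values moved with these libraries. The summed hepatocyte markers had 25372 and 40280 FPKM in HBx,Src(p53-) DIO, against 14648 and 13731 FPKM in HBx,Src(p53-) NOR. Most of that sum was the fibrinogen gene fgg, with 19503 and 32676 FPKM on DIO against 8874 and 7350 FPKM on NOR. The genes fabp10a and fgb also lay above their NOR values. ambp overlapped between the diets, as did apoa2, with 2229 and 2963 FPKM on DIO against 2902 and 3421 FPKM on NOR. The muscle list (8 of 8 found, 5 of them at 0 in every library) had 19.7 and 7.59 FPKM on DIO, against 5.23 and 7.17 FPKM on NOR. Nearly all of this was the gene myl7. Exocrine pancreas genes (413 and 45.1 FPKM on DIO, 83.7 and 284 FPKM on NOR), ovary genes (9.97 and 4.89 FPKM on DIO, 21.8 and 1.27 FPKM on NOR), macrophage and neutrophil genes (13.4 and 11.6 FPKM on DIO, 25.9 and 7.38 FPKM on NOR), and red blood cell genes (384 and 447 FPKM on DIO, 403 and 410.2 FPKM on NOR) overlapped between the diets. The part of these levels in the values of the 10 genes was not tested.

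**Figure D4:**
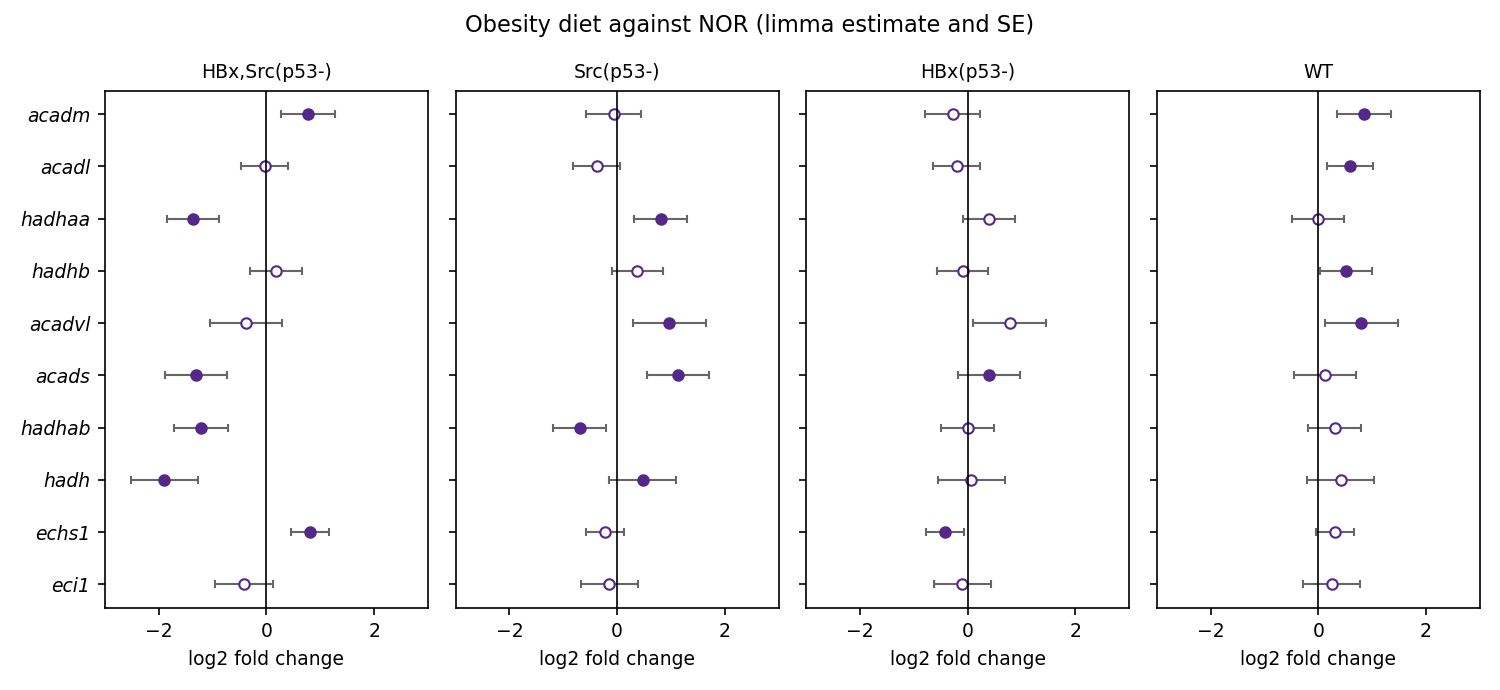
log2 fold change of the obesity diet against NOR with its SE (limma on log2(FPKM + 1)) for the 10 genes, 1 panel for each type of fish. Filled points are genes without overlap between the diets, open points are genes with overlap, and no point passed an adjusted p of 0.05. hadh, hadhaa, acads, and hadhab lie at −1.22 or below in HBx,Src(p53-), and hadhaa and acads lie above 0 in Src(p53-).

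In Src(p53-) fish, 0 of 10 genes had an unadjusted limma p under 0.05 on the obesity diet, against 8.59% of all genes, and 0.0771% of all genes passed after adjustment. The obesity libraries lay above the NOR libraries for acads, acadvl, hadh, and hadhaa and below them for hadhab, which is 5 of 10 genes against 46.5% of the expressed genes. acads had 147 and 146 FPKM in Src(p53-) DIO and FAT, against 63.4 and 70.1 FPKM in NOR (log2 fold change 1.13 ± 0.58, limma adjusted p = 0.589). hadhaa had 204 and 130.0 FPKM in DIO and FAT, against 83.9 and 102 FPKM in NOR (0.81 ± 0.49, limma adjusted p = 0.658). acadm, with 1100 and 479.7 FPKM in DIO and FAT, and acadl, with 269.7 and 140.5 FPKM, were higher in DIO than in FAT and overlapped their NOR values. The median fold change of the 10 genes was 0.16, against −0.34 over the expressed genes. It was 0.43 under quantile normalization and 0.40 under a common FPKM sum, against −0.03 and −0.14 over the expressed genes. It was −0.12 without Src(p53-) DIO, 0.46 without Src(p53-) FAT, −0.01 without Src(p53-) NOR library 1, and 0.40 without Src(p53-) NOR library 2. Under both scalings, acadm, echs1, and eci1, all near 0 here, changed sign.

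In HBx(p53-) fish, 0 of 10 genes had an unadjusted limma p under 0.05, against 4.41% of all genes, with 0.0237% passing after adjustment. Only acads, higher, and echs1, lower, did not overlap between obesity and NOR libraries, 2 of 10 genes against 28.9% of the expressed genes. The NOR libraries of these fish were far apart, with 513 and 1423 FPKM of acadm, 83.9 and 217 FPKM of hadhaa, and 42.5 and 194 FPKM of acadvl. The 10 genes together summed to 961 and 2424 FPKM in these libraries, which are the lowest and the highest sum of all 16. In WT fish, again 0 of 10 genes had an unadjusted limma p under 0.05, against 4.42% of all genes, with 0.0712% passing after adjustment. Here acadl, acadm, acadvl, and hadhb were higher in both obesity libraries than in both NOR libraries, 4 of 10 genes against 23.0% of the expressed genes. acadm had 905 and 1130 FPKM in WT DIO and FAT, against 639 and 490.2 FPKM in WT NOR (log2 fold change 0.85 ± 0.51, limma adjusted p = 1.00). The median was 0.37 in WT and −0.05 in HBx(p53-), against 0.03 and −0.04 over the expressed genes. The median of WT was 0.08 without the FAT library, 0.59 without the DIO library, 0.20 without WT NOR library 2, and 0.78 without WT NOR library 1. That of HBx(p53-) ran between −0.38 without its DIO library and 0.49 without its NOR library 2, with 0.30 without its FAT library and −0.36 without its NOR library 1.

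The next comparison set each transgenic type against WT on the same diet. Again 0 of 10 genes passed an adjusted p of 0.05 in any of the 6 contrasts (limma). On the obesity diet, 2 of 10 genes in HBx,Src(p53-) had an unadjusted limma p under 0.05, against 12.9% of all genes, with 0.887% passing after adjustment. Both shares over all genes were the largest of the 6 contrasts. echs1 was above both WT obesity libraries, and acadl, acads, acadvl, hadh, hadhaa, and hadhab were below them, 7 of 10 genes against 52.3% of the expressed genes. hadhaa had 58.8 and 72.5 FPKM in HBx,Src(p53-) DIO, against 192 and 146 FPKM in WT DIO and FAT (log2 fold change −1.35 ± 0.49, limma adjusted p = 0.272). echs1 had 24.2 and 24.3 FPKM, against 9.21 and 15.8 FPKM in WT (0.94 ± 0.35, limma adjusted p = 0.295). hadh had 5.63 and 6.23 FPKM, against 9.10 and 30.2 FPKM in WT (−1.36 ± 0.62, limma adjusted p = 0.388). The median of the 10 genes was −0.57, against 0.13 over the expressed genes. These WT libraries differ in diet from each other and, in the FAT library, from those of HBx,Src(p53-). Against WT DIO alone, which is 1 library, only fold changes are given. The fold change was then −1.55 for hadhaa and 1.31 for echs1. That of hadh was −0.54, since its WT DIO library had 9.10 FPKM and its WT FAT library 30.2 FPKM. Summed cell type markers stood apart in the same libraries as well, in both directions. HBx,Src(p53-) DIO had summed levels of 13.4 and 11.6 FPKM of macrophage and neutrophil genes, against 3.17 and 0.573 FPKM in WT DIO and FAT. It had 9.97 and 4.89 FPKM of ovary genes, against 0.641 and 0.114 FPKM in WT. Of the muscle list only myl7 was above 0 in these libraries, with 19.7 and 7.59 FPKM, against 0.581 and 0.104 FPKM in WT. This was not particular to HBx,Src(p53-). On DIO and FAT, myl7 had 15.5 and 4.91 FPKM in HBx(p53-), and 0.088 and 0 FPKM in Src(p53-). Exocrine pancreas genes had 413 and 45.1 FPKM in HBx,Src(p53-) DIO, against 6.11 and 28.6 FPKM in WT. The hepatocyte sum was also higher, with 25372 and 40280 FPKM against 17408 and 16152 FPKM in WT. Red blood cell genes were lower, with 384 and 447 FPKM against 587 and 546 FPKM in WT. The part of these markers in the values of the 10 genes was not tested.

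Against WT on the obesity diet, 0 of 10 genes in Src(p53-) and 0 of 10 in HBx(p53-) had an unadjusted limma p under 0.05. Over all genes, 5.29% in Src(p53-) and 5.49% in HBx(p53-) did, and 0.0534% and 0.0919% passed after adjustment. acads was above both WT libraries in both types of fish, with 147 and 146 FPKM in Src(p53-), 92.4 and 93.7 FPKM in HBx(p53-), and 51.3 and 80.8 FPKM in WT. It was the only gene without overlap in Src(p53-), 1 of 10 against 35.0% of the expressed genes. In HBx(p53-), acadl and acadm lay below WT as well, which makes 3 of 10 genes against 30.9%. Exocrine pancreas genes had 55.5 and 85.7 FPKM in Src(p53-) and 92.2 and 324 FPKM in HBx(p53-), against 6.11 and 28.6 FPKM in WT. Red blood cell genes overlapped WT in both types. The hepatocyte sum was lower in HBx(p53-), with 15073 and 14547 FPKM against 17408 and 16152 FPKM in WT. Within it, fgg was lower (9787 and 9688 against 13319 and 11146 FPKM) and apoa2 higher (2457 and 2696 against 1328 and 2018 FPKM). In Src(p53-) the sum was 17922 and 10254 FPKM and overlapped WT. The part of these markers was not tested. hadhab had 22.7 and 8.89 FPKM in HBx(p53-) DIO and FAT, against 22.7 and 37.9 FPKM in WT, and overlapped (log2 fold change −0.99 ± 0.49, limma adjusted p = 0.858).

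**Figure D5:**
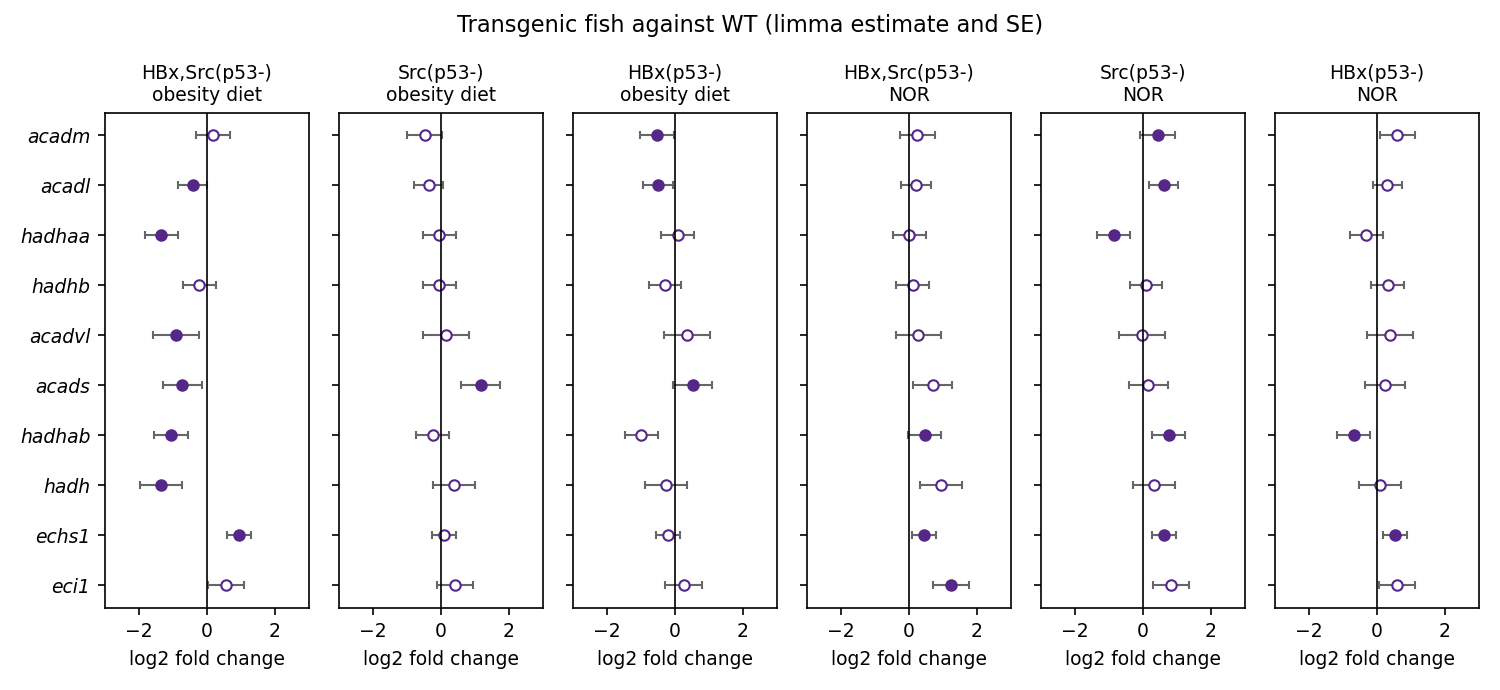
log2 fold change of each transgenic type against WT with its SE (limma on log2(FPKM + 1)), on the obesity diet (3 left panels) and on NOR (3 right panels). Filled points are genes without overlap between transgenic and WT libraries, open points are genes with overlap, and no point passed an adjusted p of 0.05. In HBx,Src(p53-) on the obesity diet, 7 of the 10 genes are below 0, and echs1 lies above 0 at 0.94.

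On NOR, most fold changes against WT were above 0, in 10 of 10 genes in HBx,Src(p53-) and 8 of 10 in each of Src(p53-) and HBx(p53-). In HBx,Src(p53-) fish, 1 of 10 genes had an unadjusted limma p under 0.05, near the 8.95% of all genes, with 0.219% passing after adjustment. This was eci1, with 11.7 and 28.3 FPKM against 10.4 and 4.82 FPKM in WT (log2 fold change 1.25 ± 0.53, limma adjusted p = 0.541). echs1, eci1, and hadhab lay above both WT libraries, 3 of 10 genes against 34.3% of the expressed genes. Summed macrophage and neutrophil genes (25.9 and 7.38 FPKM against 0.655 and 2.59 FPKM in WT) lay above WT as well. So did exocrine pancreas genes (83.7 and 284 FPKM against 9.74 and 6.28 FPKM) and ovary genes (21.8 and 1.27 FPKM against 0.348 and 0.750 FPKM). The muscle list gene myl7 (4.87 and 7.12 FPKM against 0 FPKM in both WT libraries) did too, while red blood cell genes overlapped. The part of these markers was not tested. acads had a fold change of 0.71 (limma adjusted p = 0.796), which became 1.80 (adjusted p = 0.0456) without WT NOR library 1, the only alternative in which a member was called. In Src(p53-) fish, 0 of 10 genes had an unadjusted limma p under 0.05, against 9.06% of all genes, with 0.344% passing after adjustment. acadl, acadm, echs1, and hadhab lay above WT and hadhaa below it, 5 of 10 genes against 36.7%. In HBx(p53-) fish, 0 of 10 genes had an unadjusted limma p under 0.05, against 6.85% of all genes, with 0.196% passing after adjustment, and echs1 (above WT) and hadhab (below WT) did not overlap, 2 of 10 genes against 29.5%. echs1 was thus above both WT libraries in all 3 transgenic types on NOR, with values of 13.04 to 17.5 FPKM against 11.2 and 8.06 FPKM in WT. These contrasts share the same WT libraries. Exocrine pancreas genes lay above WT on NOR in HBx(p53-) too, with 32.5 and 152 FPKM, and overlapped WT in Src(p53-). Macrophage and neutrophil genes lay above WT in Src(p53-), with 3.17 and 4.81 FPKM, and overlapped WT in HBx(p53-). The part of these markers was not tested either. Relative to WT on NOR, the medians over the 10 genes were 0.37 in HBx,Src(p53-), 0.39 in Src(p53-), and 0.31 in HBx(p53-), against 0.30, 0.26, and −0.07 over the expressed genes. All 3 medians rested on WT NOR library 2, without which they were 0.02, 0.06, and −0.02. Without HBx(p53-) NOR library 2, the median of HBx(p53-) was −0.23, and without HBx,Src(p53-) NOR library 2 that of HBx,Src(p53-) was 0.13. Without WT NOR library 1, the medians were 0.56 in HBx,Src(p53-), 0.79 in Src(p53-), and 0.68 in HBx(p53-). Quantile normalization lowered the median of the expressed genes by over 0.1 in Src(p53-) and HBx,Src(p53-). The medians of the 10 genes were then 0.15 in HBx,Src(p53-) and 0.21 in Src(p53-), and hadhb in both and hadhaa in HBx,Src(p53-) changed sign.

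The study set Src(p53-) and HBx,Src(p53-) fish apart from WT and HBx(p53-) fish, and the 4 libraries of the Src carriers were compared with the 4 of the others on each diet. All Src carriers have the p53 mutation and WT fish do not, so Src and p53 are partly mixed here. On NOR, 0 of 10 genes passed an adjusted p of 0.05 and 1 had an unadjusted limma p under 0.05, against 11.5% of all genes, with 0.107% passing after adjustment. This gene, hadhab, had 25.4 and 42.7 FPKM in HBx,Src(p53-), 34.4 and 47.8 FPKM in Src(p53-), 11.3 and 18.01 FPKM in HBx(p53-), and 23.1 and 24.0 FPKM in WT (log2 fold change 0.95 ± 0.35, limma adjusted p = 0.344). All 4 carrier libraries lay above the 4 others, which made hadhab 1 of 10 genes without overlap, against 6.84% of the expressed genes. The summed macrophage and neutrophil markers (3 of 5 found) had 3.17 to 25.9 FPKM in the carriers and 0.66 to 2.59 FPKM in the others. Of these genes only mpeg1.1 lay apart by itself. lyz and mpx were at 0 in both Src(p53-) NOR libraries, and the highest sum rested on mpx at 18.8 FPKM in HBx,Src(p53-) NOR library 1. The part of these markers in the value of hadhab was not tested. On the obesity diet, 0 of 10 genes passed and 1 had an unadjusted limma p under 0.05, against 9.04% of all genes, with 0.110% passing after adjustment. This gene was echs1 (0.62 ± 0.25, limma adjusted p = 0.480), whose values overlapped, since Src(p53-) DIO and FAT had 14.2 and 11.8 FPKM and WT FAT had 15.8 FPKM. None of the 10 genes was without overlap there, against 5.93% of the expressed genes. The carriers held fewer FAT libraries, since those of HBx,Src(p53-) were of DIO alone. Src and diet are thus partly mixed in this contrast.

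The difference between diet responses was tested directly in the same model. The diet effect of the Src carriers minus that of the other fish passed for 0 of 10 genes, with 1 at an unadjusted limma p under 0.05, against 9.42% of all genes, and 0.0356% passing after adjustment. That gene was hadhab, with a difference of −1.11 ± 0.49 (limma adjusted p = 0.524). The unequal mix of DIO and FAT between carriers and other fish entered this contrast too. Contrasts between HBx,Src(p53-) and each single-transgene type were added after the values had been seen. The diet effect of HBx,Src(p53-) minus that of Src(p53-) passed for 0 of 10 genes, with 3 at an unadjusted limma p under 0.05 (acads, hadh, and hadhaa), against 6.99% of all genes, and 0.0623% passing after adjustment. The diet effect of HBx,Src(p53-) minus that of HBx(p53-) passed for 0 of 10, with 3 at an unadjusted limma p under 0.05 (echs1, hadh, and hadhaa), against 8.14% of all genes, and 0.0742% passing after adjustment. hadhaa and hadh were named in both contrasts. hadhaa had −2.17 ± 0.69 (limma adjusted p = 0.460) and −1.76 ± 0.69 (limma adjusted p = 0.529). hadh had −2.37 ± 0.88 (limma adjusted p = 0.575) and −1.96 ± 0.88 (limma adjusted p = 0.609).

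Other genes around the pathway were followed through lists. Over all genes and the 15 comparisons, 8.14% of tests had an unadjusted limma p under 0.05, and this share is given as background. The 15 comparisons reuse the same 16 libraries. The tests of a gene are therefore not separate, and 1 gene can be counted several times in a list. Of the carnitine shuttle, which brings long chains into the mitochondrion, 3 of 8 listed genes were found (slc25a20, crata, and cratb), and 0 passed in any of the 15 comparisons, with 5 of 45 tests (11.1%) at an unadjusted limma p under 0.05. slc25a20, the carnitine-acylcarnitine carrier, had 127 and 123 FPKM in HBx,Src(p53-) DIO, the lowest of all 16 libraries, against 249.6 and 241 FPKM in HBx,Src(p53-) NOR (log2 fold change −0.97 ± 0.49, limma adjusted p = 0.508). Of other mitochondrial enzymes and electron transfer, 8 of 17 were found, and 0 passed, with 11 of 120 tests (9.17%) at an unadjusted limma p under 0.05. Their most abundant gene was ivd, of leucine breakdown, with 878 and 755 FPKM in HBx,Src(p53-) DIO and 503 and 292 FPKM in HBx,Src(p53-) NOR (1.09 ± 0.43, limma adjusted p = 0.401). etfb, a subunit of the electron-transfer flavoprotein that takes electrons from the acyl-CoA dehydrogenases, had 62.5 and 56.4 FPKM there, against 26.5 and 30.3 FPKM on NOR (1.04 ± 0.42, limma adjusted p = 0.409). On DIO, slc25a20 thus lay below its NOR values, and ivd and etfb lay above theirs. The 3 shuttle genes found were all lower in this comparison, with a median log2 fold change of −0.97. The 8 genes of the list with ivd and etfb were split, 4 higher and 4 lower, with a median of 0.09.

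Of the peroxisomal list, 4 of 12 genes were found and 0 passed, with 12 of 60 tests (20%) at an unadjusted limma p under 0.05. All of these were repeated counts of scp2a and pex19, with none from ehhadh or acot8. scp2a, the peroxisomal thiolase and sterol carrier gene, averaged 435 FPKM over all libraries and had 601 and 807 FPKM in HBx,Src(p53-) DIO, against 296 and 332 FPKM in HBx,Src(p53-) NOR (log2 fold change 1.15 ± 0.37, limma adjusted p = 0.275). The 4 genes found were split in this comparison, 2 higher (scp2a and pex19) and 2 lower (ehhadh and acot8), with a median of 0.08. Of the ketone body enzymes, 4 of 7 were found and 0 passed, with 3 of 60 tests (5.0%) at an unadjusted limma p under 0.05. Of the regulators, 5 of 14 were found, with 22 of 75 tests (29.3%) at an unadjusted limma p under 0.05, most of them in the same few genes. After adjustment 1 test passed. This was rxrab in Src(p53-) against WT on NOR (limma adjusted p = 0.0257), a gene with 1.40 and 0.783 FPKM in Src(p53-) NOR and listed at 0 in both WT NOR libraries. Of the opposing fatty acid synthesis list, 5 of 9 were found and 0 passed, with 3 of 75 tests (4.0%) at an unadjusted limma p under 0.05. Its most abundant gene, scd, the stearoyl-CoA desaturase, ranged between 1.57 and 3272 FPKM, and both ends of that range were NOR libraries, WT NOR library 1 and Src(p53-) NOR library 2.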

How the data were processed

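The authors aligned paired-end liver RNA-seq reads (Illumina) to GRCz10 with HISAT2 and assembled transcripts with StringTie. The submitters' processing notes name HISAT2 2.1.0, StringTie 1.3.4d, and SAMtools 1.7. They deposited FPKM values, which keep no read counts, so depth per gene and counting error are unknown. Each gene's value stands under 1 transcript name, and whether other transcripts were added is not stated. Of 35885 entries, 7916 assembled ones were given their symbol and rows of a symbol were summed.

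Here, log2(FPKM + 1) of 33715 genes above 0 in at least 1 library was fitted in 8 groups with limma 3.58.1 in R 4.3.3 (eBayes with trend, 8 residual degrees of freedom), with Benjamini-Hochberg adjustment over all genes and a threshold of 0.05. The fit was tested on simulated data. Paralog ratios were compared by exact permutation. Named genes were the 10 members, the most abundant genes of the lists or any that passed, and the 5 genes most like the mean of the members. The values of 1 list gene are not reported here. Alternatives were a pseudocount of 0.1, a filter at a mean of 1 FPKM, quantile normalization, a common FPKM sum, eBayes without trend, the replicate number as a block, DIO or FAT alone, and leaving out each library. The members and lists were chosen with earlier results of these data known.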

Additional observations from a re-analysis of the deposited data

Results flagged for a closer look

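In 5 cases the 2 HBx,Src(p53-) obesity libraries moved one way from the NOR libraries and those of a single-transgene type the other way. There were 3 such genes of 10 against Src(p53-), where 8.33% of the genes averaging 1 FPKM or more did so, and 2 of 10 against HBx(p53-), where 11% did so. The diet effect of HBx,Src(p53-) minus that of Src(p53-) was −2.44 ± 0.82 for acads, −2.37 ± 0.88 for hadh, and −2.17 ± 0.69 for hadhaa (log2 scale, SE, limma adjusted p = 0.498, 0.575, and 0.460). The diet effect of HBx,Src(p53-) minus that of HBx(p53-) was −1.71 ± 0.82 for acads and 1.23 ± 0.50 for echs1 (limma adjusted p = 0.640 and 0.547). None passed the threshold, and the obesity libraries were 2 of DIO in HBx,Src(p53-) and 1 each of DIO and FAT in the other types of fish.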

How the results depend on the processing

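The count of members past an adjusted p of 0.05 was above 0 in 1 of 184 alternatives. Each alternative is 1 comparison under 1 setting, so many of them come from the same fit. The fold changes with an unadjusted limma p under 0.05 were also followed, with the acads contrast of HBx,Src(p53-) with HBx(p53-). None of these changed sign or passed in 233 alternatives. They had been picked from these same data, and some settings cannot move a fold change, so the kept sign is no separate support. Other members changed sign under rescaling. The alternative fit with a count above 0 was of HBx,Src(p53-) against WT on NOR, without WT NOR library 1. There acads had a log2 fold change of 1.80, against 0.71 with all libraries. In such fits the lone library is assumed to vary like the other groups. Of 184 alternative medians over the members, 21 had the other sign. The 184 include settings that leave every fold change of a member as it was, so that these medians could not change sign. They are eBayes without trend (15 medians), the filter at a mean of 1 FPKM (15), and the replicate block (5). Leaving out 1 library moved the median between −0.23 and 0.68 for HBx(p53-) against WT on NOR and between −1.23 and −0.086 for the diet effect of HBx,Src(p53-) minus that of HBx(p53-). With DIO alone, the median for HBx(p53-) against WT was 0.30, and it was −0.24 with FAT included. Without the 2 HBx,Src(p53-) DIO libraries, r of the alpha and beta subunits was 0.743. The cause was not tested.

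With the replicate block, 0 members were called in the 5 comparisons that could be fitted, and the medians were those without it. Against WT on NOR they were 0.37 in HBx,Src(p53-), 0.39 in Src(p53-), and 0.31 in HBx(p53-). They were −0.40 for the diet effect in HBx,Src(p53-) and 0.27 for Src carriers on NOR. Each group in these fits held 1 library of each replicate number, so the block could not change a median. The equal medians are thus no separate support. The numbers were not shown to pair the libraries, since the differences between replicates 1 and 2 correlated at −0.26 to 0.22 between groups. With 2 libraries a group and no read counts, differences within the spread of replicates were not detectable.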
